A study of Mus musculus with 6 samples.

Results

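Traf1, Inhba, Ptgs2, Casp4, Il1b, Il12b and Ccl5 are 7 genes of inflammatory signalling among the 139 genes that the study listed for BMDCs, dendritic cells raised in culture from mouse marrow, after repeated treatment with rapamycin. The 7 genes were picked by name from that list. The list itself was chosen by significance and fold-change thresholds in the study's own comparison of both conditions. A place in the list is therefore a condition of entry and no result about the genes. The RNASeq had 6 libraries in 2 conditions, all from C57BL/6 marrow cultured for 8 days with GMCSF at 6 ng/mL in 3 treatments. The 3 Veh-DC libraries came from cells given vehicle, and the 3 Rapa-M-DC libraries from cells given 3 treatments with rapamycin at 10 ng/mL. Rapamycin inhibits the kinase mTOR. Such cultures are mixed populations, and the labels name no cell sort before sequencing. The sources differ on whether the sequenced cells had received LPS. All sample labels (Veh/Veh and Rapa/Veh) and the supplementary methods name arms without LPS. The main text instead describes the sequenced cells as LPS-treated, and every value below carries that uncertainty. The values are one number per gene, the base mean, which is the authors' mean of size-factor-normalised counts over all libraries of both conditions. No value of a single library was at hand, so the spread between replicates is not given and the depth per library is unknown. The study's own comparison of the conditions is part of the list but was not used. No difference between Rapa-M-DC and Veh-DC is therefore given here. A base mean pools both conditions and is the level of neither, so levels and orders of genes below need not hold within Veh-DC or within Rapa-M-DC.

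NF-κB is a family of transcription factors that is held in the cytoplasm by inhibitor proteins and released when Toll-like receptors or TNF receptors signal. In dendritic cells it drives genes for cytokines, chemokines and enzymes that shape the T cell response. Traf1 is an adaptor of TNF receptors, Inhba encodes the subunit of activin A, Ptgs2 encodes the prostaglandin synthase COX-2, and Casp4 encodes the mouse protease also known as caspase-11, which senses cytosolic LPS. Il1b, Il12b and Ccl5 encode the cytokine IL-1β, the p40 subunit of IL-12 and IL-23, and a chemokine that attracts T cells and monocytes. Many transcripts of this kind also hold AU-rich elements in the 3′ untranslated region (UTR), short A and U runs known to bind proteins that set mRNA decay.

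The promoter of Casp4 held the match to the NF-κB consensus site, and its sequence is shown first. The bases are the 250 before the RefSeq start on GRCm38.p6, 5′ to 3′ on the strand of the gene, and the capitals mark matches on either strand to the κB consensus or to its looser form, in which only the outer G and C bases are fixed. The windows lie at chr9:5308599-5308848 on the plus strand for Casp4 (the first of its 2 RefSeq starts), chr1:150099781-150100030 on the plus strand for Ptgs2, chr13:16011601-16011850 on the plus strand for Inhba and chr2:34961773-34962022 on the minus strand for Traf1. Ptgs2 and Inhba are shown because each held a match to the looser form only, and Traf1 because it held neither.
Casp4: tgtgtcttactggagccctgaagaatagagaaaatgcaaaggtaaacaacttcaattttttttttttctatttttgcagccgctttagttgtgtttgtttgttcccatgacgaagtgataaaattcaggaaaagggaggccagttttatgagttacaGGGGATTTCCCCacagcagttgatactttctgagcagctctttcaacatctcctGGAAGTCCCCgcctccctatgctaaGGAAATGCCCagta
Ptgs2: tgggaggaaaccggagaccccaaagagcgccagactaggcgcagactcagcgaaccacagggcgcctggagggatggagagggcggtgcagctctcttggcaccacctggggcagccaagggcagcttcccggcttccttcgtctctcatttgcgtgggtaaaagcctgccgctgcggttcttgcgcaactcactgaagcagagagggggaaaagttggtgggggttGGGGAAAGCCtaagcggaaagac
Inhba: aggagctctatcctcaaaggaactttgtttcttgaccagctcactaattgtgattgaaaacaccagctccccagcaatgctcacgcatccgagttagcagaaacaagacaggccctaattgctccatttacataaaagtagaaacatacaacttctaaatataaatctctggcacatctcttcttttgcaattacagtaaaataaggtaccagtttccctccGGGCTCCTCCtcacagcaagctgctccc
Traf1: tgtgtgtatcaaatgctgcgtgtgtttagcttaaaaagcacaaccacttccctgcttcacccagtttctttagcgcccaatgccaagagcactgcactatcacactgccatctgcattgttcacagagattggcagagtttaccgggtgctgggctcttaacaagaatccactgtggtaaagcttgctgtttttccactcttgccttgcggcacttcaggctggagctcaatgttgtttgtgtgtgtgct

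In Casp4 the κB consensus matched at 3 positions in 4 readings when both strands were counted. Matches from -93 to -84 and from -92 to -83, counted from the RefSeq start, overlap in the capital run nearest the middle of the sequence. The match from -39 to -30 lies on the other strand. The second RefSeq start of Casp4, 11 bases downstream, places the same matches at -104, -103 and -50. The κB consensus stood in 8.49% of the 32544 distinct promoter windows of 300 bases in RefSeq and in 9.62% of the 104 windows of listed genes. Of the 6 members with a promoter window in the table, Casp4 alone held it within these letters and this window. Ccl5 was without an entry.

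The looser form occurred in 51.0% of all promoter windows, so a match to it says little. It was found in Casp4, in Ptgs2 from -23 to -14 and in Inhba from -28 to -19, which is 3 of the 6 members. With 1 mismatch to the consensus allowed, 4 of the 6 members held a match (Il1b in addition) against 63.3% of all windows. The letters are absent from the Traf1 and Il12b windows under each of these forms. A missing match does not mean that a gene lacks NF-κB sites, since sites of other letters or outside the window were not looked for.

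Other motifs were looked for on both strands of the same windows. TTNNGNAA, the C/EBP form, was found in Inhba, Ptgs2, Casp4 and Il1b, against 40.7% of all windows, and the Ptgs2 match from -69 to -62 reads the same on both strands. TATAAA stood from -31 to -26 in Il1b and from -91 to -86 in Inhba, and in 13.6% of all windows. GAGGAA, the core of the PU.1 site, was found in Ptgs2 and Il12b and in 28.1% of all windows. The AP-1 letters TGANTCA, the CRE letters TGACGTCA, the GAS letters TTCNNNGAA and the ISRE core, a pair of GAAA repeats, were in 0 of the 6 members. Those forms stood in 7.79%, 1.80%, 8.33% and 3.45% of all windows. In the 104 windows of listed genes, the shares were 46.2% for C/EBP, 21.2% for TATAAA and 34.6% for PU.1. They were 9.62% for AP-1, 3.85% for CRE, 8.65% for GAS and 12.5% for the ISRE core. Differences between these shares and those of all windows were not tested.

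**Figure D1:**
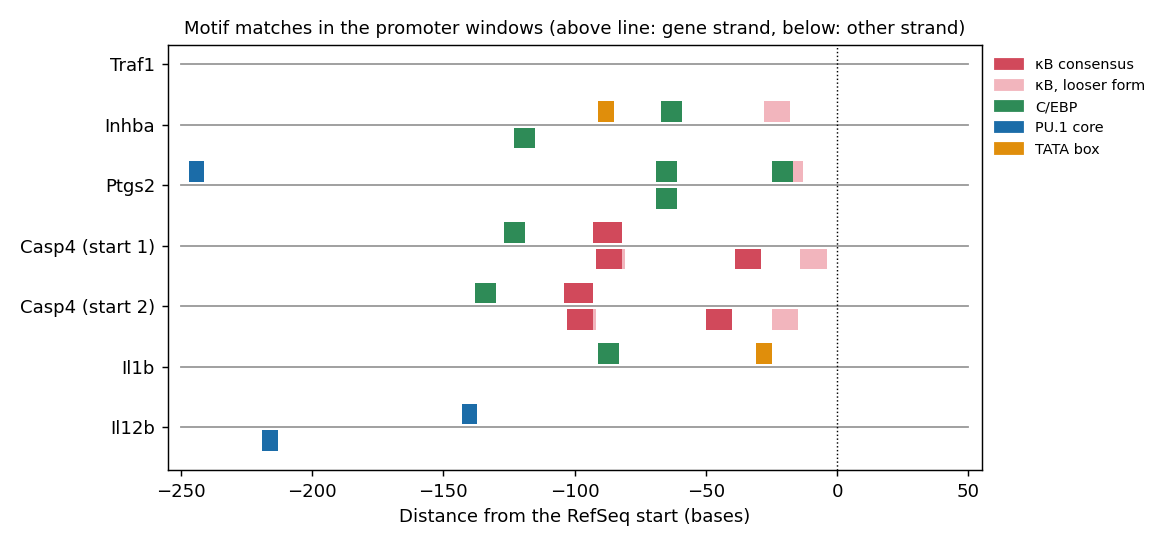
Motif matches in the promoter windows of 6 of the 7 genes, from 250 bases before to 50 bases after the RefSeq start (x axis, bases). Each bar is a match, above the line on the strand of the gene and below it on the other strand. The κB consensus (red) is seen in the windows of both Casp4 starts, from -93 to -83 and from -39 to -30 of the first.

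Traf1 (ENSMUSG00000026875) lies on the minus strand of chromosome 2 from 34941750 to 34961772. Its base mean was 31.5 normalised counts, which ranked 67th of the 139 listed genes and near the middle of the list, since 52.2% of the other genes were lower. The gene has 9 annotated transcripts whose exons together cover 8819 bases, while the longest transcript has 3436 bases in 7 exons. Traf1 is thus the member whose level depends most on what is counted as its length, with 3.57 normalised counts per kb over all exons and 9.15 per kb of the longest transcript. Its nearest protein-coding neighbours are Phf19 at 27723 bp and Hc, the gene of complement C5, at 21558 bp, and neither is in the list. No annotated gene overlaps Traf1 on either strand.

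Inhba (ENSMUSG00000041324) lies on the plus strand of chromosome 13 from 16011851 to 16031621. Among the 7 genes it had the second highest base mean, 58.6 normalised counts, which ranked 39th in the list. Its longest transcript spans 6390 bases, of which 1272 are coding, and per kb of exon its level was 9.17 normalised counts. The pseudogene B230303A05Rik and the antisense gene Gm48444 overlap it on the opposite strand by 11573 and 6240 bp, with 0 bp shared between exons. It stands far from other protein-coding genes, 281824 bp from Gli3 and 825850 bp from Sugct.

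Ptgs2 (ENSMUSG00000032487) lies on the plus strand of chromosome 1 from 150100031 to 150108227. Its base mean was 25.6 normalised counts, 81st in the list, so 42.0% of the other listed genes were lower. The longest transcript has 4453 bases in 10 exons, and the level per kb over all exons was 5.58 normalised counts. The nearest protein-coding gene on the lower-coordinate side is Pla2g4a at 138740 bp, the phospholipase that releases the substrate of COX-2. Pla2g4a had no row in the list, so its level is unknown here.

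Casp4 (ENSMUSG00000033538) lies on the plus strand of chromosome 9 from 5308828 to 5336783. Its base mean of 8.86 normalised counts was the lowest of the 7 and ranked 133rd of 139. Multiplied by the 6 libraries, the counts behind it come to 53.1 normalised counts in all, against 678.0 for Ccl5, so the value of Casp4 rests on the fewest normalised counts of the 7. Casp4 sits between related caspase genes, 1562 bp from Casp1 and 8646 bp from Casp12, and neither had a row in the list. To see whether reads could have been exchanged between such relatives, every stretch of 67 bases, the read length after trimming, was taken from the annotated transcripts. Of the 3769 such stretches of Casp4, 0 occurred unaltered in a transcript of another gene on either strand. The same count was 0 for each of the other 6 genes, from 892 stretches in Ccl5 to 9105 in Traf1. Nearly identical stretches and sequence outside annotated transcripts were not searched. The count therefore does not show that no reads were exchanged.

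Per kb of exon, the pooled levels of the cytokine and chemokine genes were the highest of the 7, although per kb of coding sequence Il1b (46.2) and Inhba (46.1 normalised counts per kb) were nearly equal. Ccl5 (ENSMUSG00000035042, minus strand of chromosome 11, 83525778 to 83530518) had a base mean of 113.0 normalised counts and ranked 23rd in the list. With exons of only 960 bases in all, it reached 117.7 normalised counts per kb and ranked 14th of 139 on that scale. Il12b (ENSMUSG00000004296, plus strand of chromosome 11, 44400063 to 44414033) had a base mean of 51.7 normalised counts and a level of 26.3 per kb. Il1b (ENSMUSG00000027398, minus strand of chromosome 2, 129364570 to 129371139) had a base mean of 37.3 normalised counts and a level of 19.6 per kb. Both cytokine genes stood below Ccl5 on either scale. Il1a, the neighbour of Il1b at 54597 bp, and Ccl9, the neighbour of Ccl5 at 42400 bp, had no row. Il1bos lies on the opposite strand of Il1b and shares 25 bp of exons with it. The strand setting of the counting is not stated, so on the 25 bp that Il1b shares with Il1bos reads of either gene cannot be told apart.

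**Figure D2:**
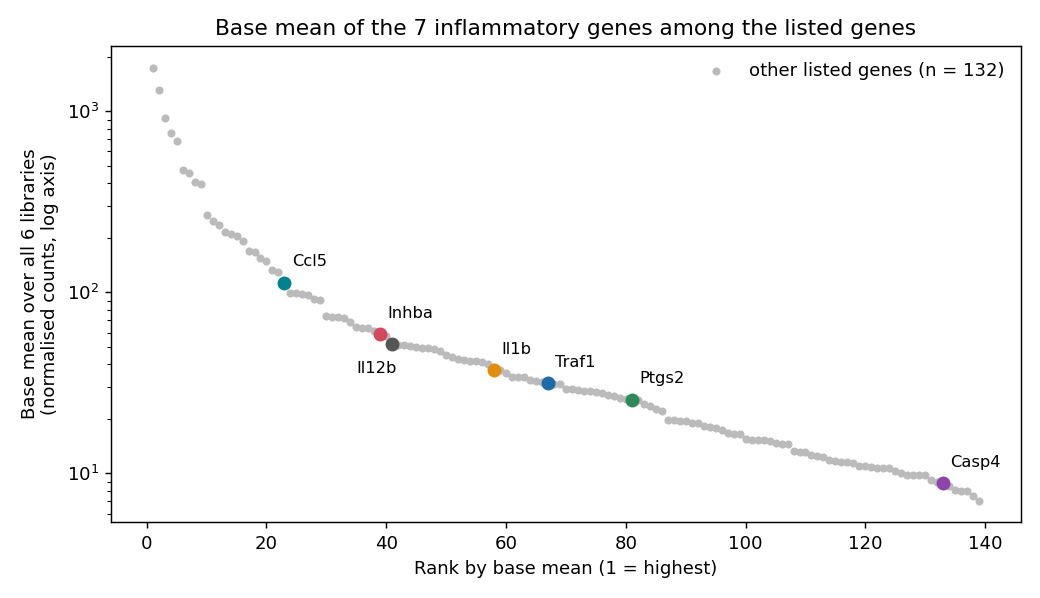
Base mean over all 6 libraries (y axis, normalised counts, log axis) of the 139 listed genes in order of rank (x axis), with the 7 inflammatory genes as named points and the other 132 in grey. Ccl5 at 113.0 ranks 23rd and Casp4 at 8.86 ranks 133rd, and the other 5 lie between ranks 39 and 81.

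In order of the level per kb of exon pooled over both conditions, which need not be the order within either, Ccl5 was followed by Il12b, Il1b, Inhba, Ptgs2, Traf1 and Casp4. Ccl5 was 4.48-fold above Il12b, which is the widest step in that order, and 49.3-fold above Casp4. The levels were adjusted for length only. The longest transcript has 2 exons in Ccl5, 8 in Il12b and 5 in Casp4, and the part of exon number was not tested. The steps between the other neighbours ran from 1.34-fold (Il12b over Il1b) to 2.13-fold (Il1b over Inhba). Without values of each library, none of these steps can be set against a spread between replicates. Per kb of the longest transcript Il1b stood above Il12b (27.5 against 26.6 normalised counts per kb) and Traf1 above Ptgs2 (9.15 against 5.74), so those neighbours have no fixed order. Ccl5 was highest and Casp4 lowest with each of the 3 lengths.

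**Figure D3:**
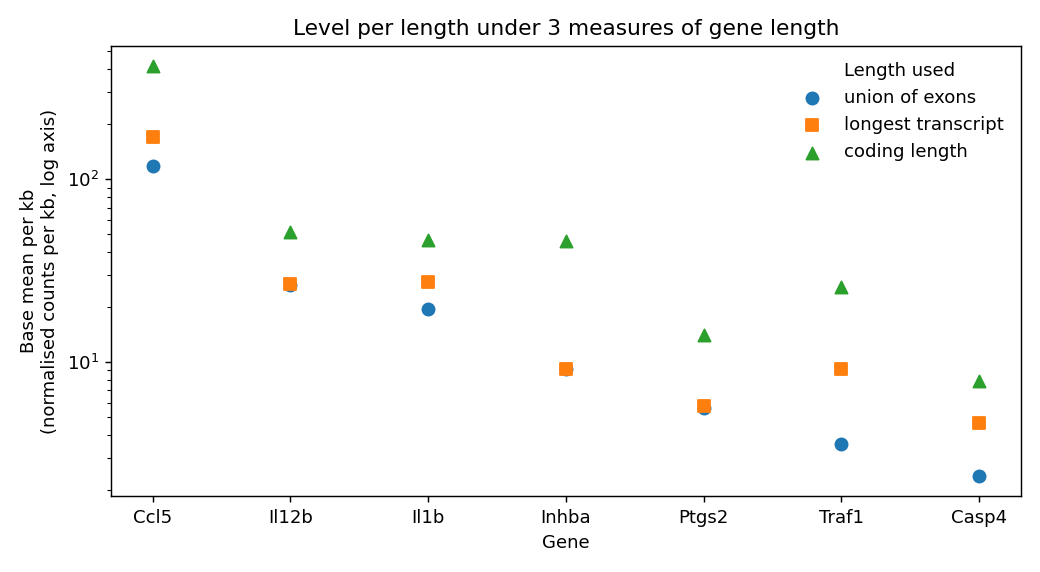
Base mean per kb (y axis, normalised counts per kb, log axis) of each gene (x axis) with the union of exons, the longest transcript or the coding sequence as its length. Each point is 1 value pooled over all libraries, with no error. Ccl5 is highest and Casp4 lowest with each length, and Traf1 moves most between the union of exons (3.57) and the longest transcript (9.15).

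As a group the 7 genes had a median base mean of 37.3 normalised counts, and the other 132 listed genes had a median of 29.0. That direction depended on the summary, since the geometric means were 36.8 for the members and 37.0 for the others, and among genes at 20 normalised counts or more the medians were 44.5 and 50.6. The members ran from 8.86 to 113.0 and the others from 7.08 to 1742, so the members lie inside the range of the list and hold 2.44% of its summed base means. Their median level was 9.17 normalised counts per kb of exon, against 10.7 for the other listed genes and 5.69 for the other 92 protein-coding ones. All 7 are protein-coding.

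Little of the pathway around the 7 genes can be read from the list. A row means that a gene passed the study's thresholds, as 139 of 55450 annotated genes did, and the number tested is unknown. Lists were made for the NF-κB pathway, inflammatory cytokines, chemokines, prostaglandin synthesis, activin signalling and inflammasome caspases. Of their 83 genes, 9 had a row, and 7 of these are the members, which had one by choice. The other two were Ikbkb, which encodes the IKKβ kinase that releases NF-κB, and Cxcl10, a chemokine gene. Ikbkb had a base mean of 25.5 normalised counts, next to Ptgs2, but 1.34 per kb, because its annotated exons cover 19078 bases. Cxcl10 had a base mean of 10.1 normalised counts and 4.48 per kb. The remaining 74 genes, Tnf, Il6, Il10, Nfkb1, Nfkbia and Tnfaip3 among them, had no row. The supplement of the study nevertheless names Il6, Birc3 and Cxcl3, which have no row here, in its TNF signalling term for Rapa-M-DC. A gene without a row did not pass both thresholds or was not tested, and nothing follows about its level.

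The label of the cells was set beside markers in the same way. Here too a row says only that a marker passed the thresholds, as 139 of 55450 annotated genes did. Neither a row nor the lack of one speaks to the identity or purity of the cells. Of 12 dendritic cell markers, 2 had a row, Cd86 at 37.2 normalised counts and Irf8 at 29.1. Of 7 macrophage and monocyte markers, Lyz2, the lysozyme gene, had a row with 128.8 normalised counts. None of the 5 neutrophil and 5 lymphocyte markers had one. Itgax, which encodes the CD11c used to define the cells, had no row either, so the cell type could not be checked from these values.

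AU-rich pentamers were then counted in the 3′ UTRs. Inflammatory mediators are known to hold such elements, so the choice of the members and this count are not independent. The pentamer, AUUUA in RNA, is the unit of the AU-rich element and was counted as ATTTA in the transcript with the longest coding sequence. The most crowded stretches are shown here for the 5 genes that hold 2 or more pentamers within 30 bases, from the GENCODE M21 transcripts, 5′ to 3′ on the strand of the gene, with each pentamer in capitals. They lie at chr1:150105796-150105825 (Ptgs2, plus), chr2:129364802-129364830 (Il1b, minus), chr11:44413473-44413502 (Il12b, plus), chr13:16029042-16029071 (Inhba, plus) and chr9:5336728-5336757 (Casp4, plus) on GRCm38.
Ptgs2: atATTTATTTATTTAtgtgaagaATTTAat
Il1b: ttacctATTTATTTAtgtATTTAttgatt
Il12b: ATTTAagtaATTTAtgtATTTAttaATTTA
Inhba: tcaacttatATTTAttATTTAttggaatca
Casp4: ATTTAccaaaagagaaatttgttttATTTA

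Pentamers were present in 6 of the 7 members, in 67.4% of the other 92 listed protein-coding genes and in 61.5% of all 20765 protein-coding genes with a 3′ UTR. The median density was 5.73 pentamers per kb of 3′ UTR in the members, 1.29 in the other listed genes and 1.12 in all protein-coding genes. Il1b had 8.71 per kb and 1.91% of all genes had more. Casp4 had 7.87 and Il12b 7.75 per kb, with 2.55% and 2.68% of genes above them. Ptgs2 at 5.73 and Inhba at 4.67 per kb had 5.66% and 9.16% of genes above. Traf1 at 1.41 per kb was close to the median of all genes, and Ccl5 held 0 pentamers in a 3′ UTR of 199 bases.

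The arrangement differed between members. In Ptgs2, 7 of the 14 pentamers stood within the first 61 bases after the stop codon, of a 3′ UTR of 2445 bases. All 4 pentamers of Il1b lay between bases 205 and 241 of 459, and 4 of the 6 of Il12b between bases 237 and 266 of 774. The 21 pentamers of Inhba were spread along 4492 bases, with at most 3 in any 60 bases. Casp4 rested on 2 pentamers in 254 bases, and with its longest annotated 3′ UTR (1496 bases) in place of that one it had 1 pentamer, or 0.67 per kb, below the median of all genes. The 3′ UTRs of the members had a median of 60.5% A and T, against 56.5% in all protein-coding genes, and Casp4 and Ptgs2 had 68.1% and 67.2%. The part of base composition in the density was not tested. The comparison describes the annotation of 7 chosen genes, and the RNASeq values do not bear on decay.

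**Figure D4:**
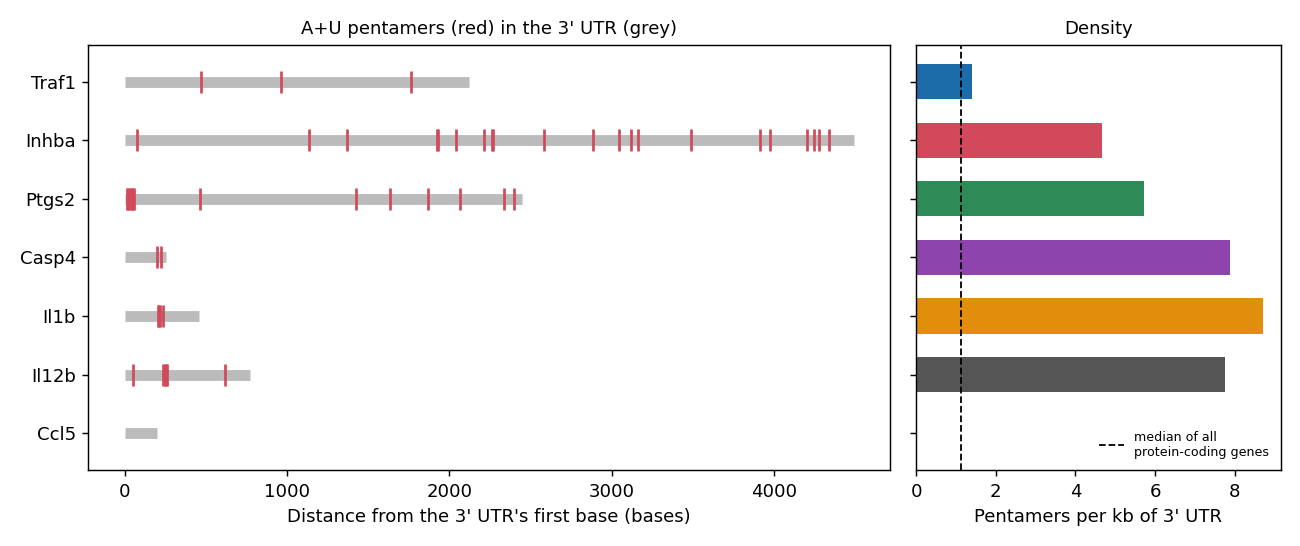
Positions of A+U pentamers (red ticks) along the 3′ UTR of each gene (grey, x axis in bases from its first base), and on the right the number of pentamers per kb of 3′ UTR. The dashed line is the median of all protein-coding genes, 1.12 per kb. Ptgs2 shows 7 of 14 pentamers at the very start, and Ccl5 shows none.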

How the data were processed

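Poly(A) RNA of BMDCs was sequenced in 72-base paired-end reads from 3 Veh-DC and 3 Rapa-M-DC libraries. The authors trimmed 5 bases, removed low-quality reads with fastx_toolkit, mapped the rest with bowtie2 (build printed as mm38, taken to be GRCm38), obtained gene counts from htseq-count and compared conditions with DESeq2. Versions and the strand option are not given in the sources used here. The one column used is the deposited base mean, a signal averaged by the authors over size-factor-normalised counts of all libraries, with no SD. The file's other 5 value columns hold the authors' own comparison (log2 fold change, its standard error, statistic, p-value and adjusted p-value) and were not used. The edgeR test foreseen for counts of each library was not run, because no such counts were at hand.

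The 7 members and the lists were chosen with earlier results of these data known. Genes given with a level are the members and every gene of the pathway and marker lists that has a row. The AU-rich count was added after the list was seen. All 139 identifiers and symbols were found in GENCODE M21 (GRCm38). Levels per kb used the union of annotated exons. RefSeq promoter windows (GRCm38.p6) ran from 250 bases before to 50 after the start, and motif scans were tested on simulated sequences. Alternatives were other lengths, looser motifs, an upstream-only window, a base mean of at least 20, protein-coding genes only, geometric means and matching by identifier or synonym. Python 3.11.15, numpy 2.4.6, pandas 2.3.3 and matplotlib 3.10.9 were used.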

Additional observations from a re-analysis of the deposited data

How the results depend on the processing

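Levels per length depended on the length. Per kb of the longest transcript, Traf1 went from 3.57 to 9.15 and Casp4 from 2.39 to 4.66 normalised counts per kb, since exons of their other transcripts no longer count. Per kb of coding sequence, which is shorter by construction, the values were 25.6 for Traf1, 46.1 for Inhba, 14.1 for Ptgs2, 7.91 for Casp4, 46.2 for Il1b, 51.5 for Il12b and 413.9 for Ccl5. The count of 1 member with a κB consensus match became 3 with the looser motif and 4 with 1 mismatch, and stayed at 1 in the upstream bases alone. Among genes at 20 normalised counts or more, the median of the other listed genes was 50.6 in place of 29.0 normalised counts, above the 44.5 of the 6 members left. The geometric means were 36.8 for the members and 37.0 for the others. Matching through synonyms gave 10 pathway genes in place of 9, because Zmynd15, which has a row, is entered as a synonym of Cxcl16. Matching by identifier gave 9, so the row of Zmynd15 is entered under its own identifier and not that of Cxcl16. Whether the reads counted for it come from Zmynd15 alone was not tested. With the longest 3′ UTR of each gene, chosen after seeing the data, 5 in place of 6 members had more pentamers per kb than the median gene. No paired analysis was possible because the table holds no value of a single library, and leaving out replicates and other normalisations could not be run for the same reason. Depth per library is unknown, and the base means carry no error.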
